A study of Mus musculus with 125 samples.

Results

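Chromatin accessibility was measured by ATAC-seq at the loci of 6 mouse genes that tune lymphocyte activation, namely Cd86, Cd80, Cd274, Pdcd1lg2, Cd200 and Ctla4. The members were the consensus peaks whose centre lay in one of 5 windows of GRCm38, chr16:36600000-36670000 (Cd86), chr16:38455000-38505000 (Cd80), chr16:45380000-45412000 (Cd200), chr19:29365000-29480000 (Cd274 and Pdcd1lg2) and chr1:60885000-60920000 (Ctla4). They numbered 75 of 256400 consensus peaks, with 11 at Cd86, 14 at Cd80, 34 at Cd274 and Pdcd1lg2, 8 at Cd200 and 8 at Ctla4. Each peak is called by its nearest of these genes and by the distance of its centre from the most upstream annotated principal start of that gene in kilobases, negative upstream and positive downstream.

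B-ALL, an acute leukaemia of B-cell precursors, was studied in cells made by transforming mouse bone marrow with the BCR/ABLp185 oncogene and then marked with DNA barcodes and GFP. Lines A and B were barcoded from 1 parental line and lines C and D from another, so each pair of lines stands for 1 leukaemia. The 125 libraries came from sorted GFP+ tumour cells of 3 arms, namely co-culture with NK cells (B-ALL + NK) sampled at TP2, the same sampled at TP1, and B-ALL alone at TP1. The NK cells were splenic, expanded in IL-2, and were added at equal numbers. By the study's methods, tumour cells sorted at the first harvest were plated again with fresh NK cells at equal numbers. TP2 thus followed a second challenge with NK cells. All conditions, B-ALL alone included, were grown with IL-2. By the labels TP1 was day 4 and TP2 day 10, except in experiment 9.7 with days 6 and 16. For the experiments labelled day 10, a later day stands in the text of the study. Lines A and B were grown in experiments 9.5, 9.6 and 9.7, C and D in these and in 9.5.1 (C) and 9.6.1 (D), which makes 6 combinations of line and experiment for A/B and 8 for C/D. Each combination had 3 libraries an arm, apart from 2 for line D alone in 9.6.1. B-ALL cells were sampled alone only at TP1, so that at TP2 the time in culture and the presence of NK cells cannot be told apart. Between TP2 and TP1, the time in culture and the second challenge cannot be told apart either.

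The genes encode 2 arms of one control system. CD80 and CD86 are ligands on antigen-presenting and B-lineage cells that bind CD28, which costimulates T cells, and CTLA-4, the inhibitory receptor encoded by Ctla4, which binds them more tightly and strips them from the presenting cell. PD-L1 (Cd274) and PD-L2 (Pdcd1lg2) are ligands of the inhibitory receptor PD-1, and CD200 quiets cells that carry its receptor, CD200R1. IFN-γ, which NK cells secrete, is a known inducer of PD-L1. It acts on gamma activated sites (GAS) and, through interferon regulatory factors (IRFs), on interferon-stimulated response elements (ISRE), while an ETS factor and an IRF together bind a composite element (EICE). ATAC-seq reports how often the Tn5 transposase enters DNA, and not the RNA or protein of these genes. In such bulk samples, fewer cells with an open site and a less open site in each cell cannot be told apart.

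The letters below are shown because they lie in peaks that changed with NK cells, apart from Cd274 +4.4 kb, an uncalled peak with an ISRE core. They are reference sequence of GRCm38 from RefSeq, 150 bases each, on the strand of the gene. Matches to 3 cores were sought on both strands, namely GAAA and GAAA with any 2 bases between (ISRE), TTC and GAA with any 3 bases between (GAS), and GGAA and GAAA with any 2 bases between (EICE). A match to the ISRE core and one to the EICE core can overlap. The capitals mark the match. The stretches lie at chr16:36602747-36602896, chr16:36656202-36656351 and chr16:36669840-36669989 on the minus strand, at chr19:29371932-29372081, chr19:29389900-29390049 and chr19:29391441-29391590 on the plus strand and, for the bases directly before the Ctla4 start, at chr1:60908875-60909024 on the plus strand, where none of the 3 cores matched.
Cd86 +63.2 kb, ISRE: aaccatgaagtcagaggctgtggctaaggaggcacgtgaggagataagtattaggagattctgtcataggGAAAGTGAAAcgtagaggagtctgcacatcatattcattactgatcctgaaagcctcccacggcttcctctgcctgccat
Cd86 +10.2 kb, ISRE: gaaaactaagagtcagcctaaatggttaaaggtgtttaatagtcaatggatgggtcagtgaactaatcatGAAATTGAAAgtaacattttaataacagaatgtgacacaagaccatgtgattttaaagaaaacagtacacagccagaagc
Cd86 -3.7 kb, GAS: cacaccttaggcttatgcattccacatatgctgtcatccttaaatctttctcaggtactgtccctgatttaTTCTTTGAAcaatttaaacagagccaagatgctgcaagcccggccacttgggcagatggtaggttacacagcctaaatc
Cd274 +4.4 kb, ISRE: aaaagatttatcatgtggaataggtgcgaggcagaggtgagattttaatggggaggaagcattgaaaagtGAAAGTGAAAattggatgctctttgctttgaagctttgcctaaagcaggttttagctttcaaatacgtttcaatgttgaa
Pdcd1lg2 -20.1 kb, first GAS: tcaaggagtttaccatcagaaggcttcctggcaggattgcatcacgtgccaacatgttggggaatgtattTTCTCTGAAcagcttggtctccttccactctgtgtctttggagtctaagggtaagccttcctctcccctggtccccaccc
Pdcd1lg2 -20.1 kb, second GAS: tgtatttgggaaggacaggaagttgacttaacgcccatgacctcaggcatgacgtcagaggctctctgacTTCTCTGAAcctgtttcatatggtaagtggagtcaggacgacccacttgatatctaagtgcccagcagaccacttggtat
Ctla4 -0.1 kb, no match: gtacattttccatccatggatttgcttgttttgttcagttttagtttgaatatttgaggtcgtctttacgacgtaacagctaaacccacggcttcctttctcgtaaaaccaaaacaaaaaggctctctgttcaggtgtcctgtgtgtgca

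Such short cores are common. Among 58840 windows of 679 bases centred on the tested peaks, the length of Cd86 +63.2 kb, 10.3% held the ISRE core, and at the 859 bases of Cd86 +10.2 kb 12.7% did. The GAS core was in 24.5% of windows of 893 bases, the length of Cd86 -3.7 kb, and the ISRE core in 28.1% of windows of 2175 bases, the length of Cd274 +4.4 kb. Of the 8 peaks that changed with NK cells below, Cd86 +63.2 kb and +10.2 kb held an ISRE core, Cd86 -3.7 kb 1 GAS core and Pdcd1lg2 -20.1 kb 2 GAS cores, a core found in 53% of windows of its 2405 bases. Cd86 -0.2 kb, Cd86 +23.3 kb, Ctla4 -0.1 kb and Cd200 +0.5 kb held none of the 3. RefSeq's table of 300-base promoters (GRCm38.p6) had 5 of the 6 genes and no entry for Cd86, whose promoter was therefore not searched in this way. None of the 5 held a core, against 3.44% (ISRE), 8.3% (GAS) and 2.72% (EICE) of 32851 promoters. The peak over the Cd274 start, Cd274 -0.1 kb, held 1 ISRE core upstream of that window, at chr19:29367088-29367097. Of windows of its 1366 bases, 19.0% held one. Further peaks not called with NK cells held ISRE cores too, among them Ctla4 -16.3 kb, Cd200 +19.1 kb and Pdcd1lg2 +8.3 kb.

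Counts summed over consensus peaks ranged between 3083547 and 13580746 a library, with a median of 7738029. All levels are given as CPM, the counts in a peak per 1000000 of these totals after TMM scaling. A member with 1 CPM was thus covered by about 8 counts in the median library, and the lowest members rested on few counts. Changes were tested with edgeR's quasi-likelihood F-test, with a term for each combination of line and experiment and Benjamini-Hochberg adjustment over all peaks tested genome-wide, and a peak was called at an adjusted p of at most 0.05 with an absolute log2 fold change of at least 0.58. These p-values measure the spread between libraries of 1 leukaemia a pair, which may in part be technical. A peak was tested in a pair of lines where the authors had called a broad peak over it in every library of at least 1 group and its counts sufficed. This held for 21 of the 75 members in A/B, 25 in C/D and 28 in either, of which 8 in A/B and 7 in C/D passed only through groups with NK cells, a selection that favours higher values there, while Pdcd1lg2 +1.7 kb passed in A/B only through B-ALL alone. All 75 were therefore also tested in a second fit over all 256400 peaks. The consensus peaks are themselves merged broad peaks of these libraries, so this fit is not free of such selection. Broad peaks were called over 3 members in all 125 libraries, and every member had one in at least 1 library.

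The largest changes were at Cd86. In A/B the fit over all peaks called 5 of its 11 peaks higher with NK cells at TP2 and 8 of 11 at TP1, where 1.47% and 3.12% of all peaks were called higher, with a median log2 fold change of 0.85 and 0.81, against medians of 0.03 and 0.02 over all peaks. The main fit called all 4 of its tested A/B peaks at both times, but these 4 had passed only through groups with NK cells. Over all 5 loci, edgeR called 6 of 21 tested members higher and 0 lower in A/B at TP2, where DESeq2 called 6 higher and 1 lower (Pdcd1lg2 +1.7 kb, at -0.59), and 6 higher and 0 lower at TP1. Among all tested peaks 5.06% were called higher and 1.37% lower at TP2, and 6.9% higher and 1.07% lower at TP1. In C/D, 4 of 25 members were called higher and 1 lower at TP2, where 1.73% and 1.01% of all tested peaks were, and 3 of 25 higher and 0 lower at TP1, where 1.71% and 0.112% were. Apart from Cd86 +23.3 kb in C/D, every member called higher in the main fit had passed only through groups with NK cells. That selection favours such calls, so these counts cannot be read as an excess over the shares of all tested peaks. The fit over all peaks needed a broad peak in only 1 library of any arm, so its counts are not free of that selection either. It called 8 of the 75 members higher and 1 lower in A/B at TP2, where 0.691% of all peaks were lower, and 17 higher and 0 lower at TP1, where 0.584% were lower. In C/D it called 7 higher and 1 lower at TP2 (0.725% and 0.653%) and 6 higher and 0 lower at TP1 (1.16% and 0.181%).

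**Figure D1:**
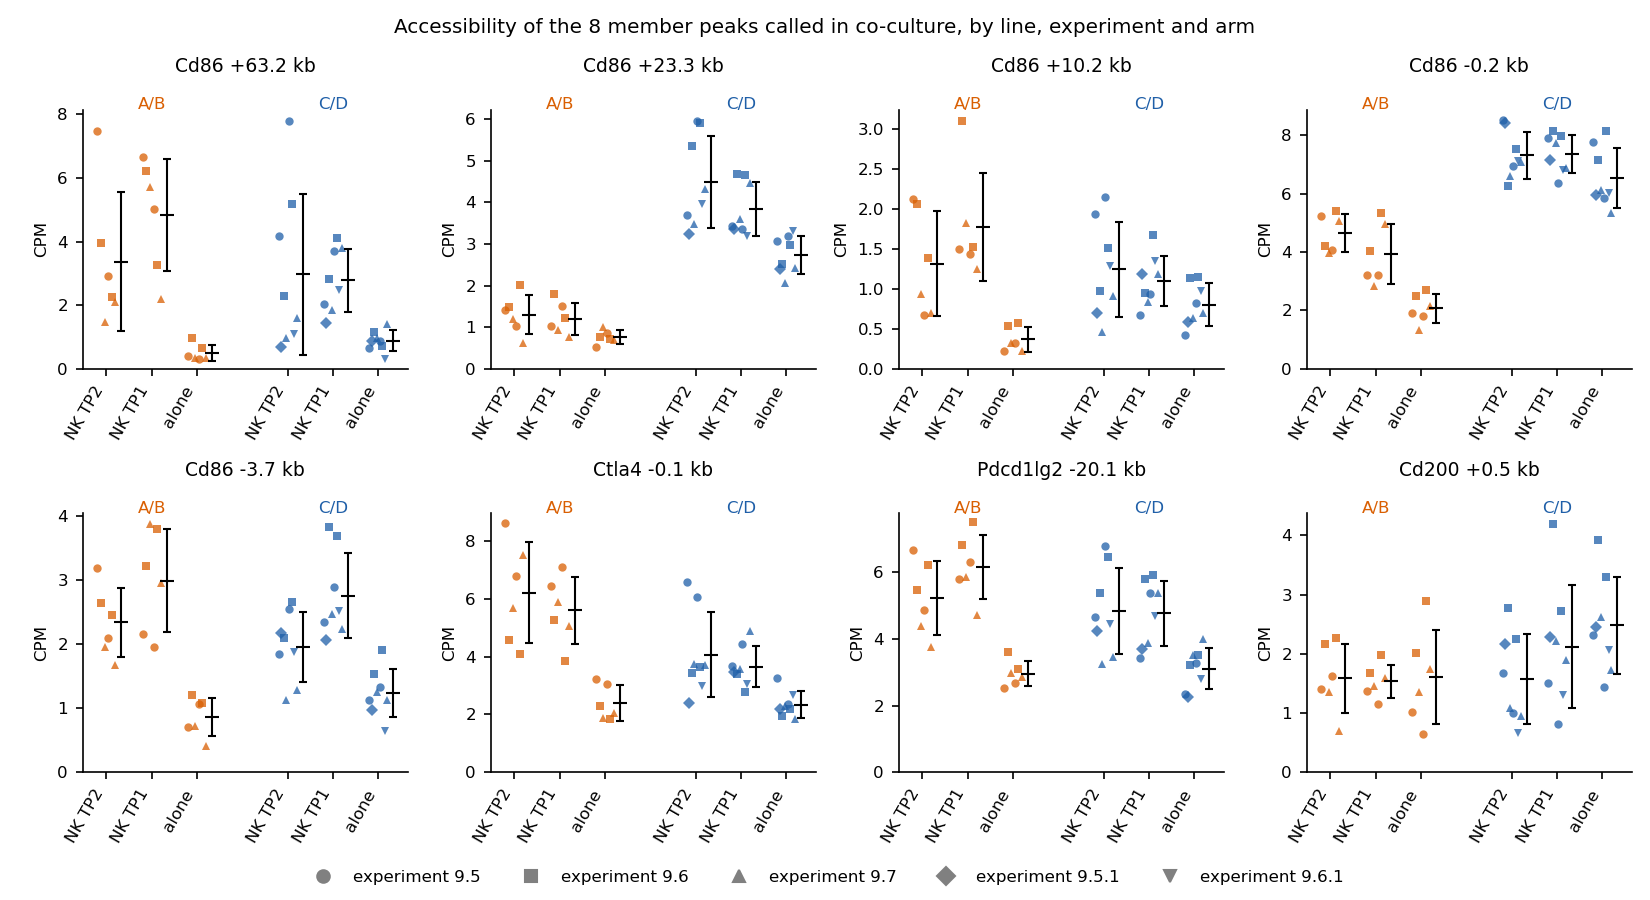
Accessibility in CPM (vertical axes) of the 8 member peaks called in co-culture, for B-ALL + NK at TP2 and TP1 and B-ALL alone, in A/B (orange) and C/D (blue). Each point is the mean of 1 combination of line and experiment (marker shape), and the bars give the mean and SD of the 6 A/B or 8 C/D combinations. Cd86 +63.2 kb sits between 1.48 and 7.49 CPM in A/B with NK cells at TP2 and below 1 CPM in A/B alone, and Cd86 -0.2 kb is higher in C/D alone than in A/B alone.

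The largest change was at Cd86 +63.2 kb (chr16:36602526-36603204, 679 bases), intergenic sequence beyond the 3′ end of the main Cd86 transcript and 1654 bases from a minor Cd86 start. In A/B its lowest, median and highest levels were 0.49, 2.7 and 8.07 CPM with NK cells at TP2 and 1.8, 5.16 and 7.65 CPM at TP1, against 0, 0.514 and 1.43 CPM in B-ALL alone (18 libraries each). Every A/B library with NK cells at TP1 was above every library of B-ALL alone, whereas the ranges overlapped at TP2. The log2 fold change was 2.64 ± 0.27 at TP2 (SE, adjusted p = 1.93e-12) and 3.23 ± 0.25 at TP1 (adjusted p = 2.94e-17), or 6.23-fold and 9.35-fold, and was upward in 6 of 6 combinations at both times. The authors' peak caller drew a broad peak here in 6 of 18 A/B libraries at TP2 and 14 of 18 at TP1, against 0 of 18 alone. The filter used these same broad peak calls, and the peak passed it only through groups with NK cells. The level at TP2 was lower than at TP1 by -0.59 ± 0.17 (adjusted p = 0.0126), in 5 of 6 combinations, and this was the 1 member of 21 called between the times in A/B, where 1.52% of all tested peaks were called lower and 0.112% higher. The fit over all peaks called 3 of 75 members lower and 0 higher there (0.82% and 0.0698% of all peaks), this one and a pair at Cd274. That call was kept in 6 of 17 alternatives only. It was lost without replicate 1 (-0.50, adjusted p = 0.148), without replicate 3 (-0.37, adjusted p = 0.312) and without experiment 9.7, which was sampled on later days (-0.36, adjusted p = 0.112).

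In C/D the same Cd86 peak had 0.311, 1.81 and 8.83 CPM with NK cells at TP2 and 1.12, 2.55 and 4.86 CPM at TP1, against 0, 0.805 and 1.83 CPM alone (23, 24 and 22 samples). Its change was 1.56 ± 0.23 at TP2 (adjusted p = 2.09e-07) and 1.66 ± 0.23 at TP1 (adjusted p = 2.46e-08). The TP2 libraries were split by experiment. The means were 4.17 CPM (line C) and 7.78 CPM (line D) in 9.5 and 2.3 and 5.18 CPM in 9.6, against 0.666, 0.883, 1.17 and 0.708 CPM alone. In 9.7 they were 0.953 CPM for C and 1.59 CPM for D, against 0.973 and 1.42 CPM alone, in 9.5.1 line C had 0.687 CPM, against 0.86 CPM alone, and in 9.6.1 line D had 1.09 CPM, against 0.323 CPM alone. The peak was thus higher with NK cells in 6 of 8 combinations at TP2 and in 8 of 8 at TP1. Without experiment 9.7 its change in C/D at TP2 was 2.12 (adjusted p = 7.66e-10), and in 9.7 alone it was 0.06 (adjusted p = 0.884).

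The next Cd86 peaks lie nearer the start. Cd86 +10.2 kb (chr16:36655470-36656328, intronic) had 0.218, 1.23 and 2.59 CPM in A/B with NK cells at TP2 and 0.796, 1.52 and 3.76 CPM at TP1, against 0, 0.31 and 0.941 CPM alone. These are few counts, with a median of 2 a library in B-ALL alone, and the ranges overlapped. It changed by 1.75 ± 0.24 at TP2 (adjusted p = 1.79e-08) and 2.21 ± 0.22 at TP1 (adjusted p = 6.83e-13), in 6 of 6 combinations. In C/D no group had broad peaks here in all of its libraries and the peak was not tested. Its C/D combination means were 1.24 ± 0.593 CPM at TP2 and 1.1 ± 0.317 CPM at TP1, against 0.803 ± 0.265 CPM alone (SD, n = 8), and the fit over all peaks did not call it in C/D.

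Cd86 -3.7 kb (chr16:36669349-36670241), upstream of the gene and the carrier of the GAS core above, was called in both pairs of lines. In A/B it had 1.22, 2.1 and 3.66 CPM with NK cells at TP2 and 1.37, 3.01 and 4.73 CPM at TP1, against 0.356, 0.761 and 1.69 CPM alone. In C/D it had 0.57, 1.9 and 3.42 CPM at TP2 and 1.38, 2.63 and 4.63 CPM at TP1, against 0.611, 1.25 and 3.07 CPM alone. The upper end of B-ALL alone reached into the range with NK cells in both pairs. The changes were 1.46 ± 0.19 at TP2 (adjusted p = 5.11e-09) and 1.83 ± 0.18 at TP1 (adjusted p = 3.43e-13) in A/B, and 0.59 ± 0.14 (adjusted p = 0.000758) and 1.1 ± 0.13 (adjusted p = 4.07e-10) in C/D. In C/D the change at TP2 was close to the threshold and was not called without replicate 1 (0.51, adjusted p = 0.0385) or without replicate 2 (0.53, adjusted p = 0.0252), and the level was lower at TP2 than at TP1 by -0.51 ± 0.12 (adjusted p = 0.00125), short of the fold needed for a call.

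Cd86 -0.2 kb (chr16:36665215-36667269) covers the start of the main transcript, and here the 2 pairs of lines parted. A/B libraries had 3.17, 4.6 and 7.07 CPM with NK cells at TP2 and 2.65, 3.72 and 5.9 CPM at TP1, against 1.03, 2.06 and 3.04 CPM alone. No A/B library of TP2 overlapped those alone. The change was 1.19 ± 0.11 at TP2 (adjusted p = 1.75e-14) and 0.92 ± 0.11 at TP1 (adjusted p = 8.44e-11), and this was the one tested Cd86 peak with a higher value at TP2 than at TP1 in 6 of 6 A/B combinations (0.27 ± 0.09, adjusted p = 0.032, under the fold needed for a call). C/D libraries had 5.36, 7.54 and 9.08 CPM at TP2 and 5.43, 7.34 and 10 CPM at TP1, against 4.13, 6.87 and 9.47 CPM alone. The C/D change of 0.15 ± 0.08 at TP2 (adjusted p = 0.134) and 0.17 ± 0.08 at TP1 (adjusted p = 0.132) passed no threshold.

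Of the further Cd86 peaks, +23.3 kb (chr16:36642189-36643443, 11 bases from a minor Cd86 start) was called in C/D and not tested in A/B by the main fit. In C/D it had 2.29, 4.3 and 8.34 CPM with NK cells at TP2, against 1.11, 2.77 and 3.94 CPM in B-ALL alone, a change of 0.70 ± 0.11 (adjusted p = 4.35e-07) in 8 of 8 combinations. At TP1 the change of 0.52 ± 0.11 (adjusted p = 0.0002) was below the fold threshold. In A/B this peak was at 0.409 to 2.51 CPM at TP2 and 0 to 1.79 CPM alone, with a broad peak in 0 of 54 libraries. The fit over all peaks added Cd86 -1.3 kb (1.34 ± 0.38), -2.0 kb (0.76 ± 0.26), +38.2 kb (0.63 ± 0.12) and +44.1 kb (0.81 ± 0.15) to the peaks higher in A/B at TP1, which made 8 of 11 at the locus. Of these, Cd86 -2.0 kb had a broad peak in 1 library only, of A/B with NK cells at TP2. Peaks around the locus moved too. Within 1 megabase on either side and outside the window, 7 of 45 tested peaks were called higher in A/B at TP2 and 10 of 45 at TP1, with a median change of 0.10 and 0.15. Of all tested peaks 5.06% and 6.9% were called higher there.

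**Figure D2:**
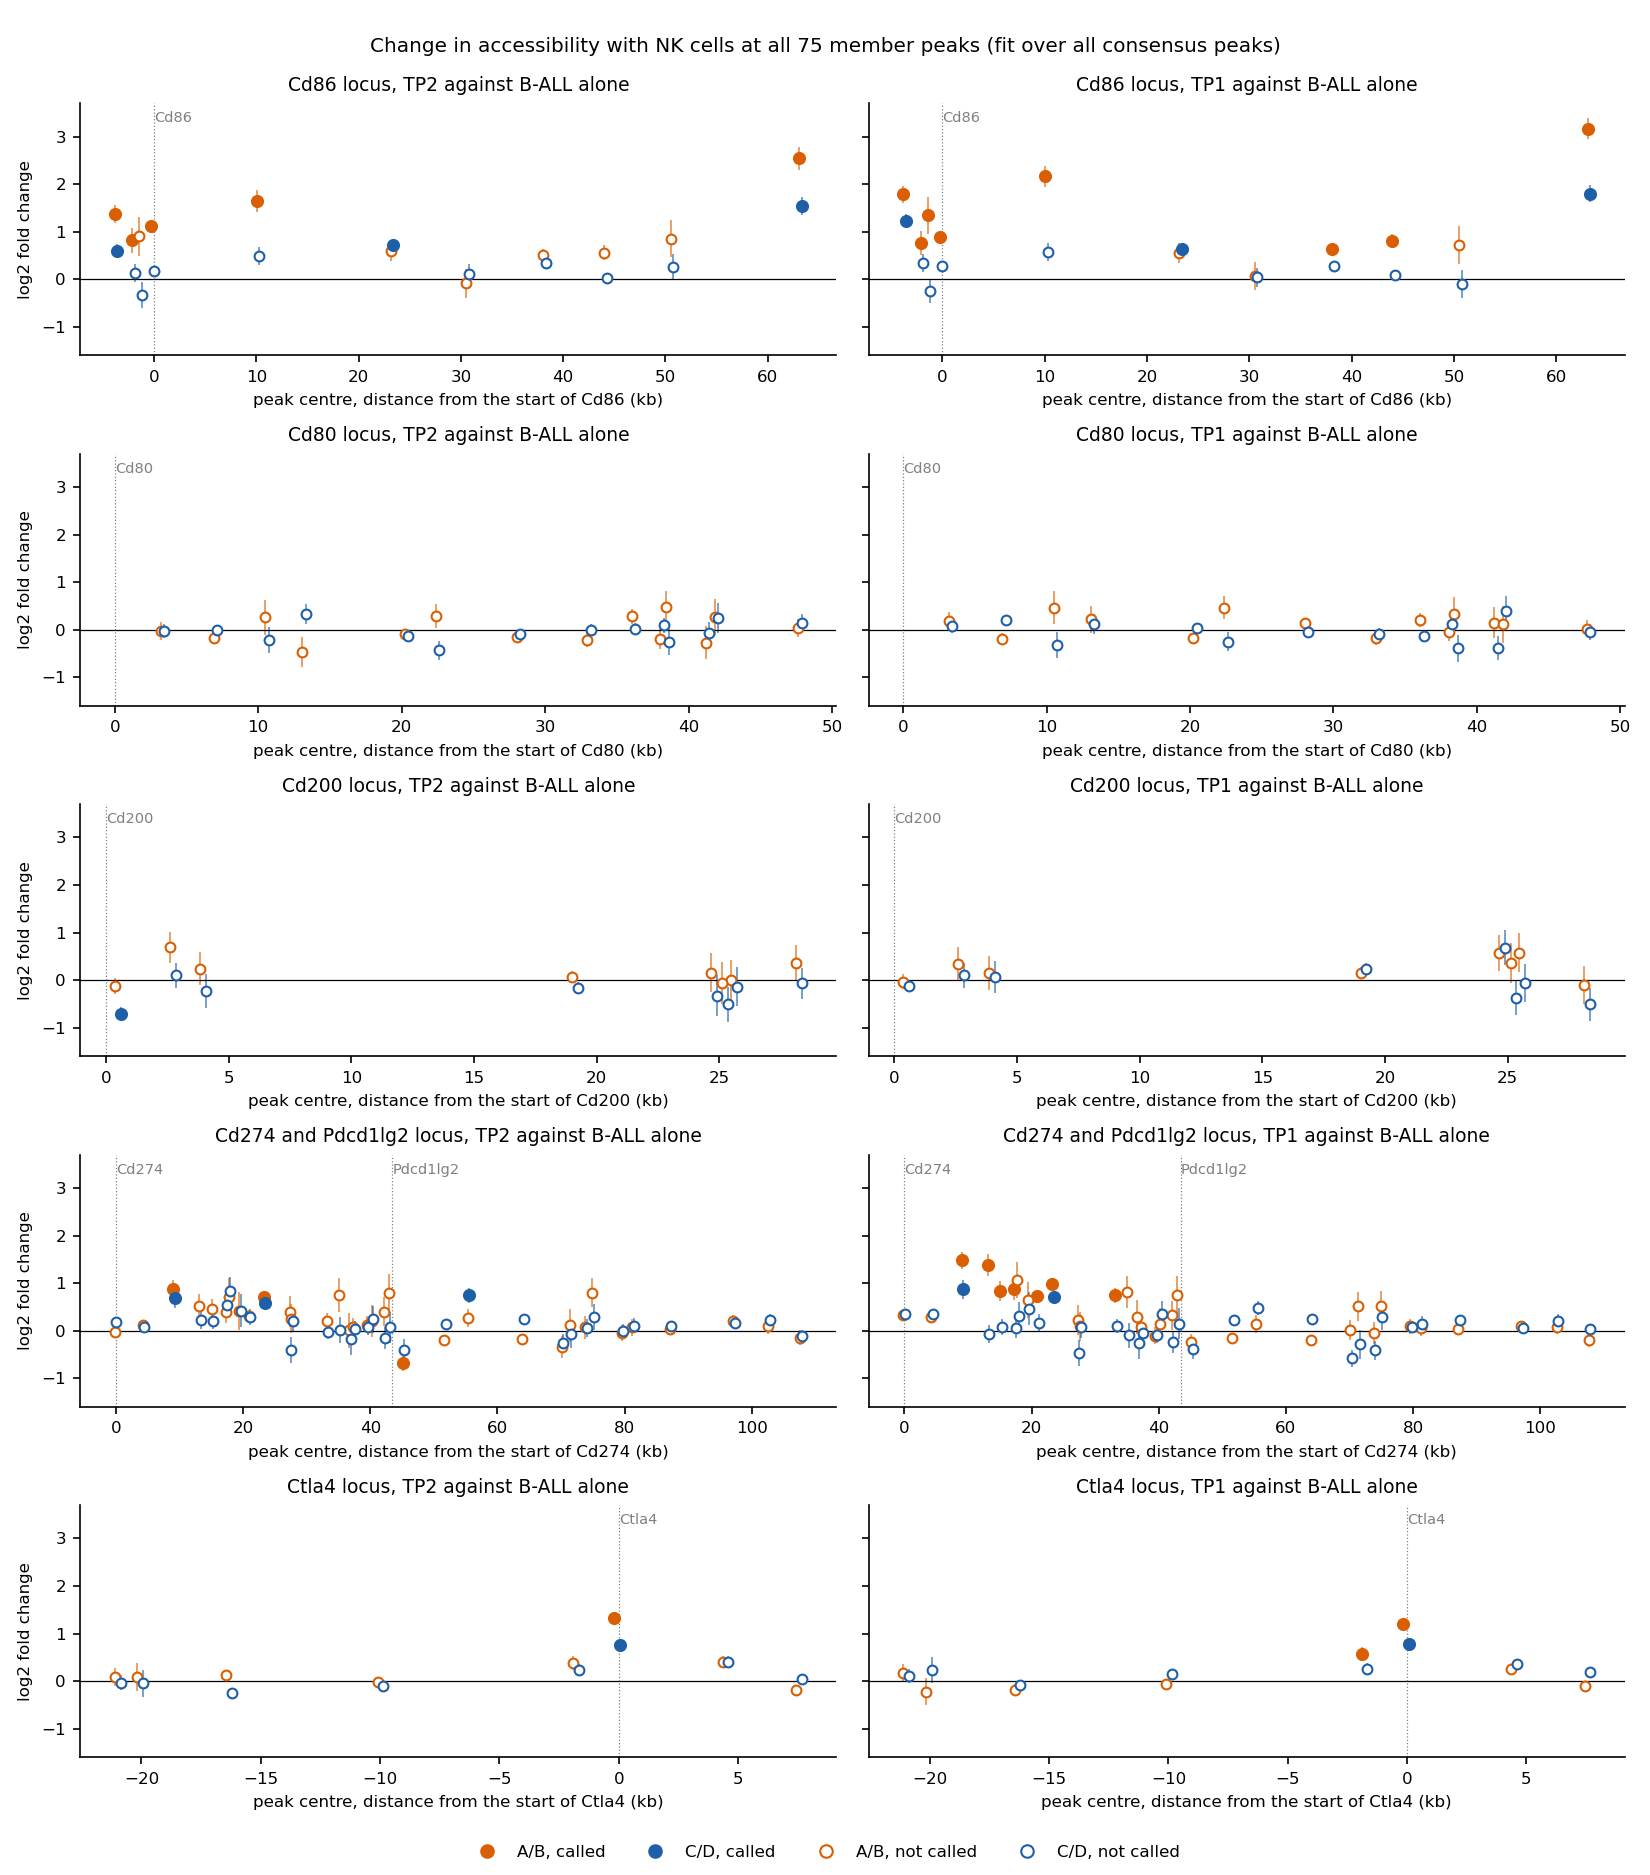
Log2 fold change with NK cells against B-ALL alone (vertical axes, ± SE) at all 75 member peaks by distance of the peak centre from the gene start in kilobases (horizontal axes), at TP2 (left) and TP1 (right), from the fit over all consensus peaks. Filled points were called, open points were not (A/B orange, C/D blue). Filled points gather at Cd86 and within and just past Cd274, where the A/B changes at TP1 reach 3.16 and 1.48, while the Cd80 locus has none.

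Cd80, the second ligand of CD28 and CTLA-4, had 0 of 14 peaks called against B-ALL alone in the fit over all peaks, in either pair of lines and at either time. That fit called 0.725% to 3.12% of all peaks higher and 0.181% to 0.691% lower. In the main fit 0 of its 3 tested Cd80 peaks were called by edgeR in each pair and at each time, with an unadjusted p under 0.05 for 1 of 3 in A/B at TP2, 0 of 3 in A/B at TP1 and 1 of 3 in C/D at both times. Here 1.71% to 6.9% of all tested peaks were called higher and 0.112% to 1.37% lower. At such shares, sets of 14 or 3 peaks may well hold no call, so these counts do not set the locus apart. At the Cd80 locus the levels were as follows. Its highest peak per kilobase was +20.3 kb (chr16:38474382-38477438, intronic). In A/B it had 4.15, 5.47 and 8.33 CPM with NK cells at TP2 and 4.03, 5.15 and 7.31 CPM at TP1, against 4.05, 6.04 and 8.77 CPM alone, and changed by -0.02 ± 0.09 and -0.14 ± 0.09 (adjusted p = 0.921 and 0.191). In C/D it had 6.98, 9.95 and 14.2 CPM at TP2 and 5.9, 10.4 and 15.5 CPM at TP1, against 8.25, 10.8 and 16 CPM alone, and changed by -0.18 ± 0.07 (adjusted p = 0.0419) and -0.09 ± 0.07 (adjusted p = 0.408). The groups overlapped almost fully. The Cd80 start of its main transcript lay under the +3.3 kb peak, with only 4 broad peaks in 125 libraries and medians of 0.934 to 1.25 CPM in the 6 groups, and was tested only in the fit over all peaks. Its changes there were between -0.02 and 0.19 on the log2 scale, with SEs of 0.15 to 0.19. Over the 14 Cd80 peaks in that fit the median was -0.06 at TP2 and 0.14 at TP1 in A/B, beside 0.03 and 0.02 over all peaks.

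Ctla4, the receptor gene of the pair, was called at its start in both pairs of lines and at both times. The peak there had passed the filter only through groups with NK cells in both pairs, a selection that favours higher values there. The fit over all peaks also called it in both pairs and at both times. Ctla4 -0.1 kb (chr1:60908683-60909243, 561 bases) spans the start of the main transcript, 62 bases from its centre, and lies in an intron of a longer one. In A/B it had 2.65, 6.27 and 9.99 CPM with NK cells at TP2 and 2.87, 5.63 and 8.18 CPM at TP1, against 1.31, 2.23 and 3.81 CPM alone. Single libraries overlapped, but the 6 combination means did not, with 4.09 to 8.62 CPM at TP2 and 3.84 to 7.11 CPM at TP1, against 1.84 to 3.24 CPM alone. The change was 1.40 ± 0.11 at TP2 (adjusted p = 7.74e-16) and 1.25 ± 0.11 at TP1 (adjusted p = 2.47e-14), 2.64-fold and 2.38-fold. Between the times it changed by 0.14 ± 0.10 (adjusted p = 0.3).

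In C/D, Ctla4 -0.1 kb had 1.79, 3.69 and 6.75 CPM at TP2 and 2.57, 3.62 and 5.42 CPM at TP1, against 1.12, 2.33 and 3.48 CPM alone. The change was 0.74 ± 0.11 (adjusted p = 9.34e-08) and 0.68 ± 0.10 (adjusted p = 7.35e-07), upward in 8 of 8 combinations at both times. Without experiment 9.7 the C/D change at TP1 was 0.54 (adjusted p = 0.00148), below the fold threshold. Broad peaks were drawn over it in 10 of 18 A/B libraries at TP2 and 11 of 18 at TP1, against 0 of 18 alone, and in C/D in 8 of 24 and 9 of 24, against 2 of 23 alone. The filter used these same broad peak calls, so they are no separate evidence. Of the other 7 Ctla4 peaks, none was called in the main fit, and the fit over all peaks called Ctla4 -1.8 kb higher in A/B at TP1, at the fold threshold (0.58 ± 0.14, adjusted p = 0.00197) and in 4 of 6 combinations. The highest per kilobase, Ctla4 +4.5 kb (chr1:60913045-60913951, intronic), had 11.4, 20.1 and 32.2 CPM in A/B at TP2 and 13.6, 17 and 21.7 CPM at TP1, against 7.74, 12.1 and 24.4 CPM alone, a change of 0.51 ± 0.09 (adjusted p = 2.6e-06) and 0.31 ± 0.09 (adjusted p = 0.00213), under the fold threshold. Ctla4 +7.6 kb, which had a broad peak in all 125 libraries, changed by -0.07 ± 0.07 and -0.03 ± 0.07. Between TP2 and TP1 no member at any of the 5 loci was called in C/D (0 of 25, with an unadjusted p under 0.05 for 7, and 0 by DESeq2), where 0.204% of all tested peaks were higher and 0.433% lower. The fit over all peaks called 2 of 75 members lower and 0 higher there (0.946% and 0.693% of all peaks), namely Cd86 -3.7 kb (-0.63) and Cd200 +0.5 kb (-0.59). In the megabase on either side of the Ctla4 window, 0 of 34 tested peaks were called in A/B at TP2 and 1 of 34 at TP1, where 5.06% and 6.9% of all tested peaks were called higher.

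Ctla4 is best known as a gene of T cells, and NK cells were in the cultures before the GFP sort, so the marker genes of both were read in the same libraries. Against B-ALL alone, 1.71% to 6.9% of all tested peaks were called higher and 0.112% to 1.37% lower. At such shares, lists of 4 to 12 tested peaks may well hold no call, so the counts below do not measure the part of other cells. Of 13 NK cell markers 9 had a tested promoter peak in each pair of lines, and 0 of them was called by edgeR against B-ALL alone at either time, with an unadjusted p under 0.05 for 3 at TP2 and 4 at TP1 in A/B and for 1 at each time in C/D. Between TP2 and TP1, Klrd1, an NK receptor gene, was lower in A/B (-0.61 ± 0.12), where 1.52% of all tested peaks were called lower. The summed level of the NK cell markers was 44.1 to 67.1 CPM in A/B at TP2 and 48.9 to 74.4 CPM at TP1, against 48.1 to 65.3 CPM alone, and the median log2 change of the list was -0.04 at TP2 and 0.23 at TP1, where Nkg7 (0.42 ± 0.13) and Prf1 (0.40 ± 0.14) had positive values. In C/D the sums were 44 to 96.6 CPM at TP2 and 45 to 63.8 CPM at TP1, against 49.7 to 65 CPM alone. The 96.6 CPM belonged to 1 library of line D in experiment 9.6 at TP2, and without it, an alternative chosen after the data were seen, all 21 called results that used it kept their calls. Of 10 T cell markers 4 were tested in A/B, with 0 called at TP2 and Lat, a T cell adaptor, lower at TP1 (-0.59 ± 0.06), and of 5 tested in C/D 0 were called, with an unadjusted p under 0.05 for 3 at TP2 and 1 at TP1. None of the markers with a peak was at 0 in all libraries of a group, B-ALL alone included, and the part of other cells in the Cd86 and Ctla4 results was not tested. Of 12 myeloid markers 1, Mpeg1, a perforin-like gene, was called higher in A/B at TP1 (0.73 ± 0.08), and of 12 B-lineage genes, which include Pax5, 0 were called against B-ALL alone, with an unadjusted p under 0.05 for 8 at each time in A/B and for 3 at TP2 and 2 at TP1 in C/D. The median log2 change of the B-lineage list was -0.15 at TP2 and -0.26 at TP1 in A/B, and its C/D medians were 0.08 and 0.04.

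PD-L1 and PD-L2 share 1 locus, and the peak called in it lay between the genes. The Cd274 start peak, Cd274 -0.1 kb (chr19:29366700-29368065), is shared with the start of Plgrkt, a plasminogen receptor gene. It was open throughout, with 11.8, 16.6 and 23.6 CPM in A/B with NK cells at TP2 and 17.6, 20.4 and 27.9 CPM at TP1, against 12.7, 16.7 and 21 CPM alone. It changed by 0.06 ± 0.07 at TP2 (adjusted p = 0.51) and 0.38 ± 0.06 at TP1 (adjusted p = 1.96e-06) in A/B, and by 0.15 ± 0.06 (adjusted p = 0.0591) and 0.23 ± 0.06 (adjusted p = 0.00418) in C/D. The TP1 values passed on p and missed the fold threshold. Cd274 +4.4 kb (chr19:29370719-29372893), in an intron and with the ISRE core printed above, changed by 0.19 ± 0.07 at TP2 and 0.34 ± 0.07 at TP1 in A/B, and its C/D values were 0.06 ± 0.07 and 0.23 ± 0.06, likewise uncalled.

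This peak was Pdcd1lg2 -20.1 kb (chr19:29389612-29392016), in intergenic sequence. In both pairs it had passed the filter only through groups with NK cells. In A/B it had 2.34, 5.14 and 7.41 CPM with NK cells at TP2 and 4.5, 5.91 and 8.09 CPM at TP1, against 1.9, 2.96 and 3.71 CPM alone. At TP1 every A/B library was above every library of B-ALL alone, and at TP2 the ranges overlapped. The changes were 0.79 ± 0.10 (adjusted p = 4.75e-09) and 1.03 ± 0.10 (adjusted p = 1.63e-13). In C/D the levels were 2.28, 4.64 and 7.39 CPM at TP2 and 2.74, 4.71 and 7.86 CPM at TP1, against 1.69, 3.24 and 4.87 CPM alone. Its C/D changes of 0.57 ± 0.11 and 0.58 ± 0.10 (adjusted p = 2.22e-05 and 1.48e-05) lay just under the fold threshold and were not called, though without experiment 9.7 they were, at 0.87 (adjusted p = 2.6e-09) and 0.72 (adjusted p = 3.46e-07), and the fit over all peaks called both, at 0.58 ± 0.10 and 0.71 ± 0.10.

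That second fit also called a run of weak peaks within and just past Cd274 in A/B at TP1, none of which had passed the main filter. They were Cd274 +9.1 kb (1.48 ± 0.18), +13.2 kb (1.38 ± 0.24), +15.2 kb (0.83 ± 0.21), +17.3 kb (0.87 ± 0.22) and +21.0 kb (0.73 ± 0.13), and with Pdcd1lg2 -20.1 kb and -10.2 kb they made 7 of the 34 members of the locus. The highest change among them was that of Cd274 +9.1 kb (chr19:29376249-29376852, intronic). It had 0.322, 1.56 and 2.59 CPM in A/B at TP2 and 0.751, 2.03 and 3.31 CPM at TP1, against 0.358, 0.772 and 1.01 CPM alone, and was also called in A/B at TP2 (0.87 ± 0.20) and in C/D at TP2 (0.69 ± 0.21) and TP1 (0.87 ± 0.20). By TP2 it and Cd274 +13.2 kb were lower than at TP1 in A/B (-0.61 ± 0.16 and -0.87 ± 0.21). Medians of 3 to 20 counts a library stand behind these A/B values. Over Cd274 +9.1, +13.2, +17.3 and +21.0 kb broad peaks were drawn only in libraries with NK cells, in 3, 2, 1 and 3 of 125. These peaks thus entered the consensus set through NK cells alone, a selection that favours higher values there.

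At Pdcd1lg2 itself, the start of the main transcript had next to no signal, with Pdcd1lg2 -0.4 kb at a median of 0.184 to 0.336 CPM and a broad peak in 1 of 125 libraries. The nearest tested peak, +1.7 kb (chr19:29412411-29412921, intronic), had lower values with NK cells. It passed the filter in A/B only through B-ALL alone, which favours higher values there. In A/B it had 0.679, 1.04 and 1.62 CPM with NK cells at TP2 and 0.837, 1.48 and 2.15 CPM at TP1, against 0.419, 1.63 and 3.14 CPM alone. The change at TP2 was -0.58 ± 0.15 (adjusted p = 0.00227), just short of the fold threshold and not called, whereas DESeq2 called it at -0.59 (adjusted p = 0.00478) and edgeR did with a loess offset at -0.88 (adjusted p = 2.06e-05), and the fit over all peaks gave -0.67 ± 0.17 (adjusted p = 0.00677), the 1 member it called lower in A/B at TP2. Near a second annotated start of Pdcd1lg2, a further peak (chr19:29422711-29423083) was called by that fit in C/D at TP2 (0.74 ± 0.15, adjusted p = 0.000335), with 0.776, 1.83 and 3.61 CPM with NK cells, against 0.512, 1.04 and 1.79 CPM alone. It had a broad peak in 2 of 125 libraries, none of them B-ALL alone. The 2 members of the locus with a broad peak in all 125 libraries, Pdcd1lg2 +8.3 kb and +20.5 kb, changed at TP2 by -0.11 ± 0.06 and -0.08 ± 0.06 in A/B, whereas the C/D values were 0.12 ± 0.06 and 0.21 ± 0.06.

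**Figure D3:**
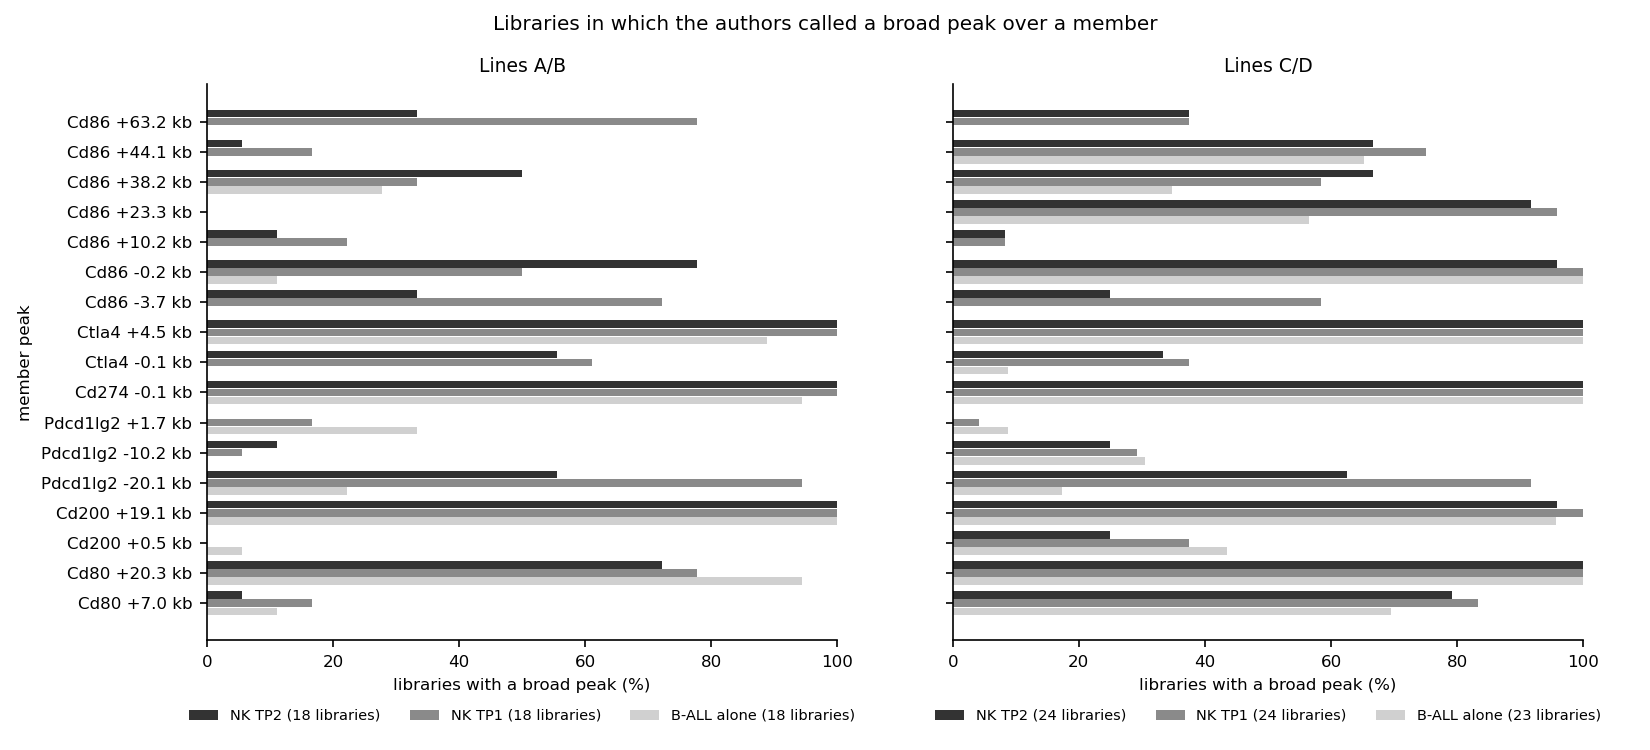
Share of libraries (horizontal axes, %) in which the authors' peak caller drew a broad peak over each of 17 member peaks, for B-ALL + NK at TP2 and at TP1 and for B-ALL alone, in A/B (left) and C/D (right). Cd86 +63.2 kb, +10.2 kb and -3.7 kb have no bar for B-ALL alone in either pair, since 0 of 18 and 0 of 23 libraries had a broad peak there, while Cd274 -0.1 kb and Cd200 +19.1 kb were called in nearly all libraries. The same broad peak calls decided which peaks the main fit tested.

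Cd200, whose product quiets CD200R1-bearing cells, was the 1 locus with a peak called lower than in B-ALL alone in the main fit. Cd200 +0.5 kb (chr16:45407888-45409258) lies just inside the gene at its start. In C/D it had 0.145, 1.37 and 3.62 CPM with NK cells at TP2 and 0.431, 1.95 and 5.75 CPM at TP1, against 0.66, 2.5 and 4.75 CPM alone. The change was -0.71 ± 0.14 at TP2 (adjusted p = 3.63e-05), in 8 of 8 combinations, and -0.26 ± 0.13 at TP1 (adjusted p = 0.17). Without experiment 9.7 the change at TP2 was -0.57 (adjusted p = 0.00752) and missed the fold threshold. The ranges overlapped widely, and combination means in B-ALL alone ran between 1.44 and 3.93 CPM. Its surroundings moved the same way, the 30 tested peaks within 1 megabase having a median change of -0.41 in C/D at TP2, with 3 of them called lower, where 1.01% of all tested peaks were. In A/B the peak was not tested, and the levels were 0.254, 1.5 and 2.65 CPM at TP2, against 0.285, 1.58 and 3.55 CPM alone. The highest Cd200 peak per kilobase, +19.1 kb (chr16:45389192-45390671, intronic), changed at TP2 by 0.14 ± 0.11 in A/B (adjusted p = 0.317) and by -0.20 ± 0.10 in C/D (adjusted p = 0.1).

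Whether the 2 pairs of lines differed was tested as a difference of their changes. At TP2 the signed difference, A/B minus C/D, was called positive for 7 of 28 members and negative for 0, where 2.86% and 1.72% of 58886 tested peaks were, and at TP1 it was positive for 6 and negative for 0, where 3.22% and 0.571% were. At the Cd86 start, -0.2 kb, the difference was 1.02 ± 0.13 at TP2 (adjusted p = 3.03e-09) and 0.75 ± 0.13 at TP1 (adjusted p = 5.09e-05). At TP2 this difference was called in all 16 alternatives that gave a value, and at TP1 in 14 of 16, with experiments 9.6 and 9.7 alone as the exceptions. Cd86 +10.2 kb differed by 1.26 ± 0.33 and 1.75 ± 0.32, Cd86 +63.2 kb by 1.06 ± 0.40 and 1.55 ± 0.39, Cd86 -3.7 kb by 0.85 ± 0.24 and 0.72 ± 0.23 and Cd86 +44.1 kb by 0.60 ± 0.18 and 0.88 ± 0.18 at TP2 and TP1. Of the peaks called for a difference, Cd86 +10.2 kb alone had entered the test only through A/B with NK cells, a selection that favours a positive difference. Ctla4 -0.1 kb differed by 0.64 ± 0.16 at TP2 (adjusted p = 0.00198), and by 0.57 ± 0.16 at TP1, short of the fold threshold. The remaining calls were Pdcd1lg2 -10.2 kb at TP1 (0.79 ± 0.22) and Cd200 +0.5 kb at TP2 (0.64 ± 0.22), where the positive sign reflects the fall in C/D described above. Most of these were less stable. At TP2 the call was kept in 10 of 15 alternatives for Cd86 +10.2 kb, 9 of 15 for Cd86 -3.7 kb, 9 of 16 for Ctla4 -0.1 kb, 7 of 15 for Cd86 +44.1 kb, 6 of 16 for Cd200 +0.5 kb and 4 of 16 for Cd86 +63.2 kb. At TP1 it was kept in 13 of 15 for Cd86 +10.2 kb, 12 of 16 for Cd86 +63.2 kb, 12 of 15 for Cd86 +44.1 kb, 8 of 15 for Pdcd1lg2 -10.2 kb and 5 of 15 for Cd86 -3.7 kb. The TP1 call at Cd86 -3.7 kb was lost without replicate 1 (0.95, adjusted p = 0.0921), replicate 2 (0.50, adjusted p = 0.207) or replicate 3 (0.70, adjusted p = 0.0844) and without experiment 9.7 (0.32, adjusted p = 0.397). That at Pdcd1lg2 -10.2 kb was lost without replicate 1 (0.68, adjusted p = 0.349) or replicate 2 (0.61, adjusted p = 0.113), and those at Cd86 +63.2 kb and +44.1 kb without replicate 1. Leaving out a single replicate number ended the TP2 call of each of these, and leaving out experiment 9.7 that of Cd86 +63.2 kb (0.62), +44.1 kb (0.60) and -3.7 kb (0.60) and of Ctla4 -0.1 kb (0.50), with adjusted p-values of 0.374, 0.0543, 0.162 and 0.0736. In the fit over all peaks the difference was called positive for 2 of 75 members at TP2 and 6 at TP1, beside 0.391% and 0.389% of all peaks, and negative for 0 at either time, beside 0.82% and 0.929%. The pairs stem from 2 leukaemias, so that a difference between the pairs is a difference between 2 parental lines.

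**Figure D4:**
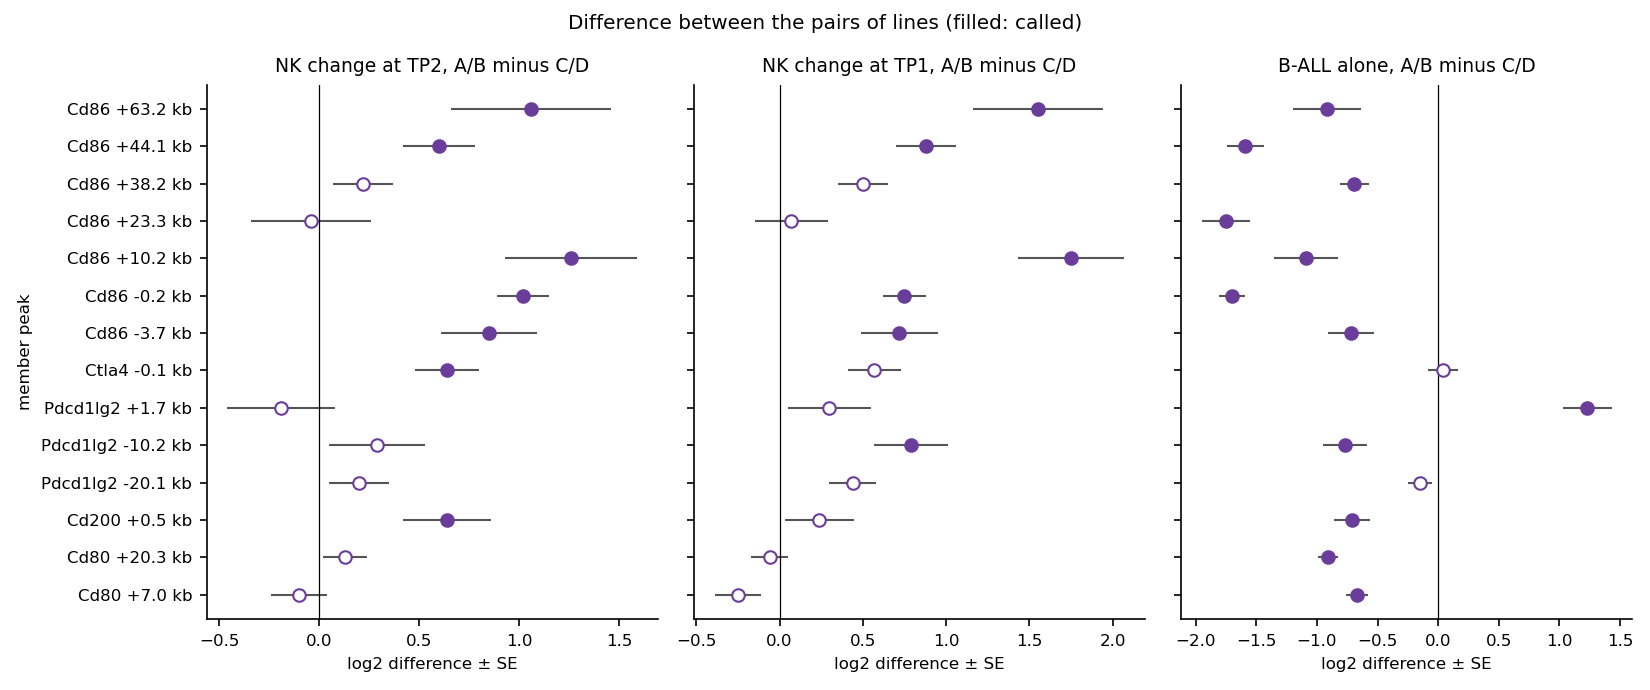
Difference between A/B and C/D (A/B minus C/D, log2 ± SE, horizontal axes) for 14 member peaks, in the change with NK cells at TP2 (left), at TP1 (middle) and in the level of B-ALL alone (right). Filled points were called. The Cd86 peaks at +63.2, +44.1, +10.2, -0.2 and -3.7 kb have positive differences in the change, up to 1.75, and negative ones in the level alone, down to -1.70. The B-ALL alone libraries enter both kinds of difference with opposite sign.

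The starting levels differed the other way. The B-ALL alone libraries enter both contrasts with opposite sign, so spread in them alone moves the starting level and the change in opposite directions. The opposite signs are therefore not separate findings. In B-ALL alone of the 3 experiments that held all 4 lines, all 7 tested Cd86 peaks were called lower in A/B than in C/D, by -0.69 at +38.2 kb to -1.75 at +23.3 kb, with -1.70 ± 0.11 (adjusted p = 1.46e-20) at the start. Of all 28 tested members 11 were lower and 1 higher, where 11.4% and 4.25% of all tested peaks were, and in the fit over all peaks 12 of 75 were lower and 1 higher, where 6.29% and 2.21% were. At Cd86 +63.2 kb and -3.7 kb the lower starting level was no longer called without experiment 9.7 (-0.45 and -0.57, adjusted p = 0.258 and 0.0288), nor at +63.2 kb without replicate 1 (-0.71, adjusted p = 0.0686) and at -3.7 kb without replicate 2 (-0.51, adjusted p = 0.076). Next to these stood Cd80 +20.3 kb (-0.91 ± 0.08) and +7.0 kb (-0.67 ± 0.09), Cd200 +0.5 kb (-0.71 ± 0.15) and Pdcd1lg2 -10.2 kb (-0.77 ± 0.18). The 1 member higher in A/B was Pdcd1lg2 +1.7 kb (1.23 ± 0.20). Around Cd80 the difference was not limited to the gene, since 20 of 65 tested peaks within 1 megabase were lower in A/B too, whereas around Cd86 5 of 52 were. Ctla4 -0.1 kb started level (0.04 ± 0.12). With NK cells at TP2 the Cd86 start reached 4.65 ± 0.656 CPM in A/B (SD, n = 6), still below the 6.54 ± 1.02 CPM of C/D alone (n = 8).

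Among the partners of these molecules, few promoters passed the thresholds. A list of 36 further checkpoint and costimulation genes had 25 with a tested promoter peak in A/B. Of these, 0 were called higher and 2 lower at TP2, where 5.06% and 1.37% of all tested peaks were, and 0 were called at TP1. The unadjusted p of edgeR was under 0.05 for 13 of the 25 at TP2 and for 14 at TP1. The 2 were Sirpa (-0.83 ± 0.10), the receptor of CD47, and Cd200r1 (-0.59 ± 0.11), the receptor of CD200. The list's median was -0.00 at TP2 and -0.02 at TP1 in A/B, beside -0.01 and -0.02 over all tested peaks. Tigit, a receptor that competes for the ligand PVR, had 0.57 ± 0.08 in A/B at TP2 (adjusted p = 1.51e-07), just under the fold threshold, while Pvr had -0.13 ± 0.06 and Cd47 0.09 ± 0.05. In C/D 26 genes were tested and 0 called by edgeR at either time, with an unadjusted p under 0.05 for 20 at TP2 and 11 at TP1 and medians of 0.11 and 0.06. Of 10 genes of IFN-γ signalling, all tested in both pairs, 0 were called, with an unadjusted p under 0.05 in A/B for 6 at TP2 and 7 at TP1, and in C/D for 6 at TP2 and 5 at TP1. At the shares of all tested peaks called, a list of 10 may well hold no call.

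The promoter peaks whose level followed each gene's start peak most closely were found over the 42 group means among 22872 tested promoter peaks, as a description. For Ctla4 -0.1 kb these were at Npc2 (Pearson's r = 0.894), Dnajc7 (r = 0.891) and Gm1965 (r = 0.882), and for Cd86 -0.2 kb at Igsf5 (r = 0.906), Lrrc40 (r = 0.903) and 4933432I03Rik (r = 0.883). Cd200 +0.5 kb was followed by 4932441J04Rik (r = 0.836), Atp6v1c2 (r = 0.833) and Gm21321 (r = 0.833). Cd274 -0.1 kb was followed by Atxn7l1 (r = 0.857), Asah2 (r = 0.856) and H2-T24 (r = 0.831), and Pdcd1lg2 +1.7 kb by Ap1ar (r = 0.860), Zfp462 (r = 0.849) and Igkv2-137 (r = 0.846). The groups share lines, experiments and depth, which are in each of these values, and with 22872 candidates high values arise by selection.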

How the data were processed

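ATAC-seq libraries of sorted B-ALL cells were aligned by the authors to GRCm38 with STAR, and duplicates were handled with Picard 2.27.4. Broad peaks were called per library with MACS2 2.2.7.1, and the deposited peak files give the −log10 q-value of each (lowest 1.0). The study's methods name a human blacklist (GRCh38). The authors merged the peaks of all libraries into consensus peaks and deposited raw counts of read pairs per consensus peak from featureCounts 2.0.1 (at least 0.2 of a fragment overlapping). From here, counts were analysed with edgeR 4.0.16 (R 4.3.3): TMM scaling, quasi-likelihood F-tests, arms plus a term for each combination of line and experiment, A/B apart from C/D and, for differences between the pairs, together. SE was the log2 fold change divided by the square root of F. The deviation of TMM-scaled CPM is given as SD over combinations. Counts for 2 pairs of libraries (line C, replicates 2 and 3, in 9.5 with NK cells at TP2 and in 9.5.1 alone) differed by less than sampling noise, with a chi-square of 0.827 and 0.853 per degree of freedom, and each pair was averaged and counted as 1 sample, leaving 123. The fit was tested on simulated data. Peaks were named where called in a main comparison, nearest the start of a gene among tested peaks, or highest per kilobase at a locus; others named were chosen after their values were seen. The members and the gene lists were chosen with earlier results of these data known. Same-numbered replicates did not pair, with 26 of 108 correlations of their deviations over 0.1 (median 0.024). Alternatives were DESeq2 1.42.0, its size factors, a loess offset, other peak filters, summed counts, all libraries kept apart, a replicate block, single experiments or lines, and each replicate left out.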

Additional observations from a re-analysis of the deposited data

Results flagged for a closer look

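In line A of experiment 9.6, Cd86 +10.2 kb had a mean of 3.1 CPM with NK cells at TP1, apart from the other 5 A/B combinations, the next of which had 1.82 CPM, so that the gap took a share of 0.692 of the whole range. It was the 1 such case in 78 groups of combinations examined, where chance alone would mark about 1 in 20.

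The change with NK cells differed between the pairs of lines, by a test of the difference itself, in 13 cases. The signed difference was positive in each, which at Cd200 +0.5 kb reflects a fall in C/D. At TP2 the log2 differences (A/B minus C/D) were 1.26 at Cd86 +10.2 kb, 1.06 at Cd86 +63.2 kb, 1.02 at Cd86 -0.2 kb, 0.85 at Cd86 -3.7 kb, 0.60 at Cd86 +44.1 kb, 0.64 at Ctla4 -0.1 kb and 0.64 at Cd200 +0.5 kb. Their adjusted p-values from edgeR were 0.0038, 0.0486, 3.03e-09, 0.00684, 0.0135, 0.00198 and 0.0316. At TP1 the differences were 1.75 at Cd86 +10.2 kb, 1.55 at Cd86 +63.2 kb, 0.75 at Cd86 -0.2 kb, 0.72 at Cd86 -3.7 kb, 0.88 at Cd86 +44.1 kb and 0.79 at Pdcd1lg2 -10.2 kb. Their adjusted p-values were 7.4e-05, 0.00283, 5.09e-05, 0.0175, 0.000306 and 0.00844.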

How the results depend on the processing

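The A/B calls against B-ALL alone at Cd86 +63.2, +10.2, -3.7 and -0.2 kb and Ctla4 -0.1 kb were kept in every alternative that gave a value, and with DESeq2 all 46 called results were kept. Over all alternatives, 599 of 735 values of called results kept their call. Without a peak filter, the members called numbered 17 in A/B at TP1, 8 and 6 in C/D at TP2 and TP1, 3 and 2 between TP2 and TP1 in A/B and C/D, and 2 for the difference between the pairs at TP2. With only the peaks that were broad in every library, 0 were called in any comparison. That filter left 4 members in A/B, 6 in C/D and 3 for the comparisons of the pairs. It removed every member that the main fit had called in the same comparison, so it could not test those calls. With promoter peaks only, 3 were called in A/B at TP2 and at TP1, 0 in A/B between the times, 3 for the difference at each time and 5 at the start. A loess offset gave 0 in A/B between the times, 3 for the difference at TP2 and 6 at the start, and counts summed per combination and arm gave 0, with 2 and 3 for the difference at TP2 and TP1. Leaving out 1 replicate number gave 0 to 1 call in A/B between the times, 3 to 5 in C/D at TP1, and 3 to 4 and 3 to 5 for the difference at TP2 and TP1. A/B between the times had 0 in lines A and B alone, in experiments 9.5 and 9.6 alone and without experiment 9.7, an alternative chosen after the data were seen, which gave 3 for the difference at TP2. In single experiments C/D had 0 calls in 9.5.1 at both times, 2 in 9.6.1 at TP2, 5 in 9.7 at TP1 and, between the times, 3, 2 and 4 in 9.5, 9.6 and 9.7. The difference had 1 in 9.5 and in 9.6 at TP2 and 0 in 9.6 and in 9.7 at TP1. Directions turned for Cd86 +63.2 kb in C/D at TP2 in 9.5.1 (-0.42), between the times in C/D in 9.5 (1.11) and for its difference at TP2 in 9.6 (-0.01), and for Cd86 -3.7 kb in C/D at TP2 in 9.7 (-0.03). The replicate block, on numbers that did not pair the samples, gave 5 calls for the difference at TP2 in place of 7 and the same counts elsewhere. The causes of these changes were not tested. Members near 1 CPM rest on about 8 counts a library, and small changes there were not detectable at this depth.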
